A study of Mus musculus with 8 samples.

Results

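Collagen chains were followed in gastric adenocarcinomas of transgenic mice (4 samples) and in normal gastric mucosa (4 samples), by total RNA on Affymetrix expression arrays. The chains were taken by gene symbol, Col followed by a type number, the letter a and a chain number, and each is read from its brightest probe set by mean over the 8 arrays, which gave 42 genes of the 21626 measured. They fall into 11 fibrillar chains, 6 basement membrane chains and 25 chains of other types. The tumours arose spontaneously in animals that carried a transgene and were frozen fresh. The labels give no transgene, strain, sex or age, name no driver of the transgene, and leave unsaid whether the mucosa donors carried it too and whether each of the 8 samples is a different animal. The p-values thus cover no more than the spread among these 8 arrays, part of which may be technical.

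Collagens are secreted proteins of the extracellular matrix, each built of alpha chains that wind around one another into a stiff helix. Fibrillar types assemble into the banded fibres that give connective tissue its tensile strength, and type IV forms the sheet-like network of basement membranes under epithelium and around vessels, muscle and nerve. The remaining types coat fibrils, anchor them, form short networks or span the plasma membrane. In the stomach wall the fibrillar chains are made mainly by fibroblasts, and fibrillar collagen accumulates in the desmoplastic stroma of many carcinomas.

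In the adenocarcinomas 17 of the 42 collagen chains rose (40.5%) and 5 fell (11.9%), while 20 were not called. Among all genes 18.2% were called higher and 23.6% lower (limma across all genes, Benjamini-Hochberg adjusted p under 0.05). The FACIT chain Col12a1 had the largest change, 24.7-fold, followed by the type I chains Col1a2 (8.88-fold) and Col1a1 (8.14-fold) and the short-chain collagen Col8a1 (8.0-fold). At least 2-fold rises were called for 15 chains, against 6.63% of all genes, and no chain fell 2-fold, against 3.15% of all genes: the 5 falls lay between -0.50 and -0.28 on the log2 scale. Values are log2 expression, so a difference of 1 is a doubling, and each chain is read from its own probe set. In these bulk samples a change in the number of cells that make a chain and a change in RNA per cell cannot be told apart.

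The median change over the 42 chains was -0.09, beside -0.10 over all genes. The family thus split into a set with changes of 1.05 and more and a set between -0.50 and 0.10, with Col5a1 and Col11a1 between them. In 14 chains all 4 adenocarcinomas lay above all 4 normal samples, against 15.8% of all genes. The 3 chains called higher with touching or overlapping groups were Col5a1, Col11a1 and Col10a1. The 25 chains not called higher ranged from 7.1 to 9.1 in adenocarcinoma, against 7.2 to 9.4 in normal mucosa.

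**Figure D1:**
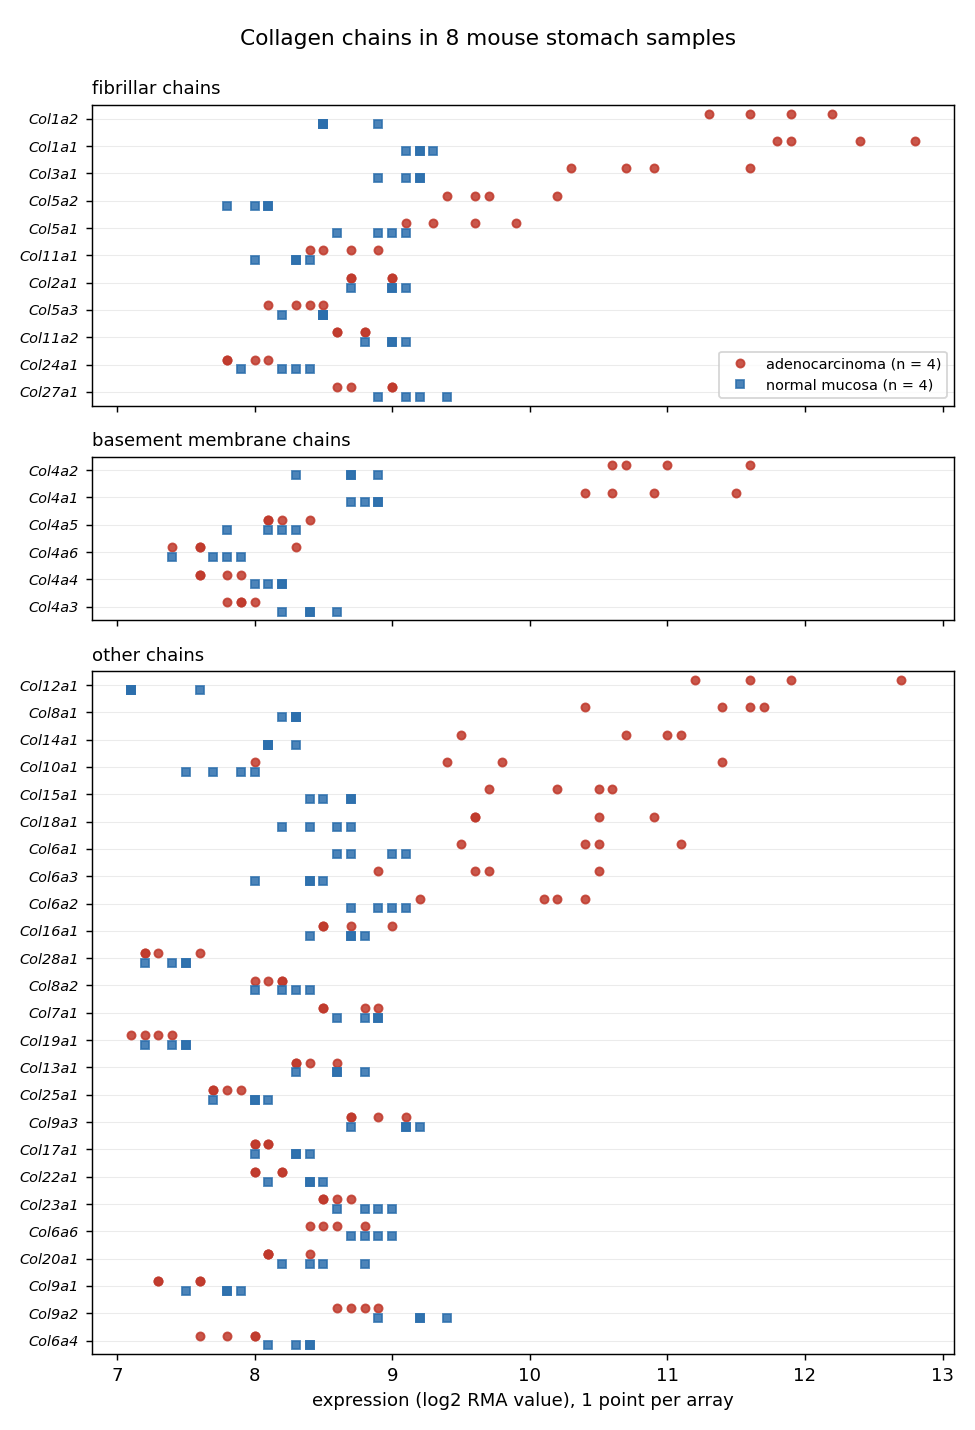
Log2 RMA values of the 42 collagen chains in each of 4 adenocarcinomas (red circles) and 4 normal mucosa samples (blue squares), by class, each class ordered by its change; equal values overlap. In 14 chains, among them Col1a1, Col1a2, Col4a1, Col4a2 and Col12a1, every red point lies to the right of every blue point.

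The median background control probe lay between 6.0 and 6.2 in adenocarcinoma, against 6.2 to 6.4 in normal mucosa, and every collagen value was above it. The median over all genes was 8.4 to 8.45 in adenocarcinoma, against 8.2 to 8.3 in normal mucosa. A value above the background probe thus does not by itself show that a chain was expressed. Exon controls exceeded intron controls by a median of 3.9 to 4.5 in adenocarcinoma, against 3.6 to 4.0 in normal mucosa, and the part of this in the changes was not tested. Xist, the RNA that silences an X chromosome in females, read 6.2, 6.3, 6.5 and 6.6 in the adenocarcinomas and 11.6, 12.4, 12.7 and 12.5 in normal mucosa. The Y-linked Ddx3y read 9.5 to 11 in the adenocarcinomas, against 6.2 to 6.6 in normal mucosa, so the sex of the animals and the tissue cannot be told apart. The parietal cell markers Atp4a, Atp4b and Esrrg all fell: Atp4a, an acid pump subunit, read 8.1 to 9.1 in adenocarcinoma, against 14 to 14.1 in normal mucosa. Pgc, Chia, Pdia2 and Gif, which mark chief cells in the mouse, fell too, with a summed level of 10.3 to 13.3 in adenocarcinoma, against 15.1 to 15.6 in normal mucosa (log2 of the summed linear values).

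Of the 11 fibrillar chains, 6 rose (54.5%), 1 fell (9.09%) and 4 were not called, with a median change of 0.38. Of all genes 18.2% rose and 23.6% fell. At a limma adjusted p under 0.01, 4 fibrillar chains were called higher. Type I collagen, the main fibre-former of stroma, showed the largest fibrillar changes. Its chain Col1a1 read 11.8, 11.9, 12.8 and 12.4 in adenocarcinoma replicates 1 to 4, against 9.3, 9.2, 9.2 and 9.1 in normal replicates 1 to 4 (difference 3.03 ± 0.204, SE; limma adjusted p = 1.15e-05). Its partner chain Col1a2, which joins Col1a1 in the same helix, read 11.3, 11.6, 12.2 and 11.9 in adenocarcinoma, against 8.9, 8.5, 8.5 and 8.5 in normal mucosa (3.15 ± 0.19, SE; limma adjusted p = 5.93e-06). The lowest adenocarcinoma exceeded the highest normal sample by more than 2 log2 units in both chains, and adenocarcinoma replicate 3 was the highest in both.

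Type III collagen, a homotrimer of Col3a1 that is mixed into type I fibres in distensible tissues, rose less. Col3a1 read 10.3, 10.9, 11.6 and 10.7 in adenocarcinoma, against 9.2, 8.9, 9.2 and 9.1 in normal mucosa (1.78 ± 0.238; limma adjusted p = 0.00059). Col5a2, a chain of type V collagen that nucleates fibrils, lies beside Col3a1 on chromosome 1, 25310 bases away and on the opposite strand in the deposited table. It read 9.4, 9.6, 10.2 and 9.7 in adenocarcinoma, against 8.1, 7.8, 8.0 and 8.1 in normal mucosa (1.73 ± 0.165; limma adjusted p = 8.7e-05). Both neighbours parted the groups in full, with replicate 3 again the highest adenocarcinoma.

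The other type V chains moved less or not at all. Col5a1, which forms the type V helix with Col5a2, read 9.1, 9.3, 9.9 and 9.6 in adenocarcinoma, against 9.0, 8.6, 9.1 and 8.9 in normal mucosa (0.58 ± 0.181; limma adjusted p = 0.0325). Adenocarcinoma replicate 1 equalled normal replicate 3 at 9.1. A second Col5a1 probe set, placed on the opposite strand within the gene, averaged 8.65 in adenocarcinoma and 8.9 in normal mucosa, and with the mean of both probe sets Col5a1 was not called (0.16, limma adjusted p = 0.418). Nor was Col5a1 called after centring each array on its median (limma adjusted p = 0.058) or after cyclic loess (0.0914), or in 5 of the 8 fits that left out an array. Col5a3, the third type V chain, differed by -0.10 and was not called (limma adjusted p = 0.497).

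The minor cartilage fibril collagen, type XI, gave opposite signs for its chains, both close to the threshold. Col11a1 read 8.5, 8.4, 8.7 and 8.9 in adenocarcinoma, against 8.3, 8.0, 8.4 and 8.3 in normal mucosa (0.38 ± 0.134; limma adjusted p = 0.0491). Col11a2 read 8.6, 8.6, 8.8 and 8.8 in adenocarcinoma, against 9.0, 8.8, 9.1 and 9.0 in normal mucosa (-0.28 ± 0.0983; limma adjusted p = 0.0492). In each chain the groups touched at 1 value, and neither call held across the alternatives: 13 of 18 alternatives lost Col11a1 and 8 lost Col11a2, whose limma adjusted p was 0.423 with arrays centred on receptor genes. The cartilage collagen Col2a1, the chief fibril of that tissue, differed by -0.10 and was not called, like Col24a1 (-0.28) and Col27a1 (-0.33).

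**Figure D2:**
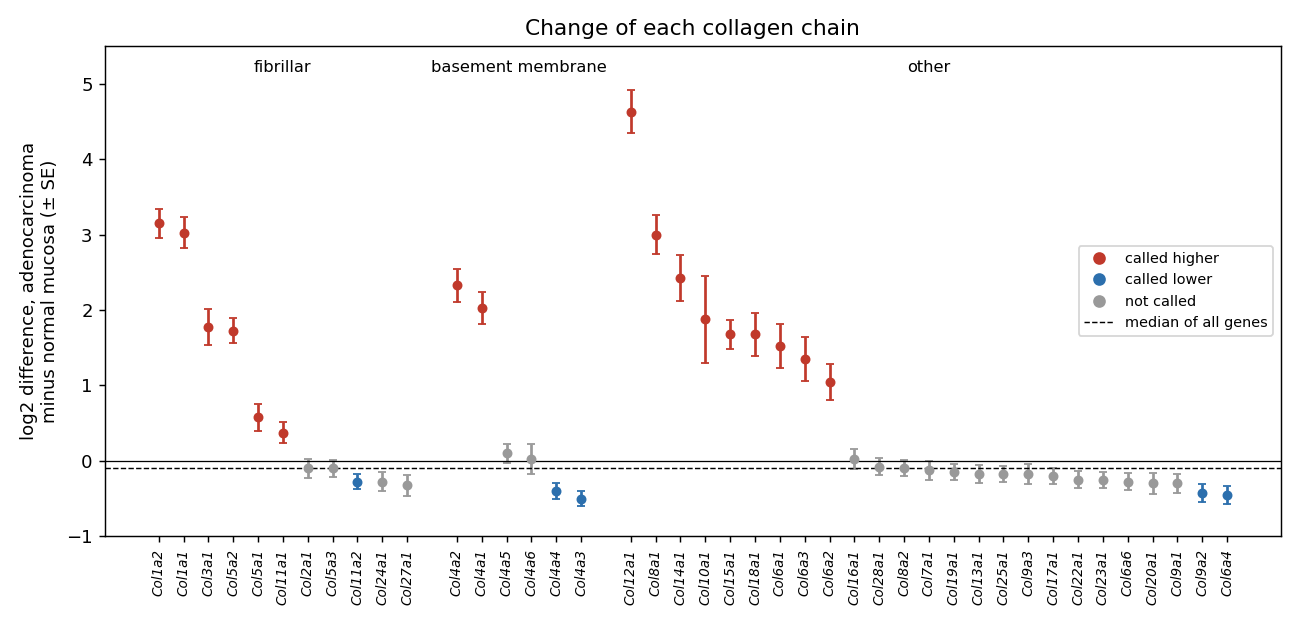
Log2 difference of each collagen chain, adenocarcinoma minus normal mucosa, with its limma SE (4 samples per group), coloured by call; the dashed line is the median of all genes, -0.10. The 15 chains that rose at least 2-fold stand clear of a larger set between -0.50 and 0.58.

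Upstream sequence is shown for 3 risers with an entry in the RefSeq promoter table (build GRCm38.p6), to set type I and type III fibrillar genes beside the short-chain gene of largest change. Each line gives the 250 bases before the annotated start, 5′ to 3′ on the gene's strand: Col1a2 at chr6:4505368-4505617 (plus strand), Col3a1 at chr1:45311288-45311537 (plus strand) and Col8a1 at chr16:57754738-57754987 (minus strand). Capitals mark 3 motifs, each searched on both strands. The first is the widespread promoter element CCAAT. The second is the box GGGCGG, a binding sequence of Sp-family factors. The third is TATAAA, the core of the TATA element.
Col1a2: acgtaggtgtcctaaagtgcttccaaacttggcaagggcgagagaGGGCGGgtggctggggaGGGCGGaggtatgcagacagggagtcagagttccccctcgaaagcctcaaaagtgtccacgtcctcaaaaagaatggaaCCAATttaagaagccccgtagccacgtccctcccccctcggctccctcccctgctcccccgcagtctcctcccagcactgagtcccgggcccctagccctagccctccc
Col3a1: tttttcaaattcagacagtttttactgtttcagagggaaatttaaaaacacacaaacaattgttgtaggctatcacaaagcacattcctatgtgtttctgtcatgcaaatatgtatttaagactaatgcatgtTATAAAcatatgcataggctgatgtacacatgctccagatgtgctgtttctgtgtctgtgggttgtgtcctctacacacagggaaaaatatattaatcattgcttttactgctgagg
Col8a1: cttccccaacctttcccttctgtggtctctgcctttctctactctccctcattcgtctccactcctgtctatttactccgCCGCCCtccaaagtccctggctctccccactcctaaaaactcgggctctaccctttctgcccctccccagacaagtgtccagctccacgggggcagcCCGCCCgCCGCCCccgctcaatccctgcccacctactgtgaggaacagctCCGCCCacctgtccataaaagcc
Col1a2 held 2 GGGCGG and 1 CCAAT, Col3a1 held 1 TATAAA alone, and Col8a1 held 4 GGGCGG, so no motif was in all 3 windows. Of the 42 chains, 34 had 37 such windows. GGGCGG stood in 53.3% of 15 windows of chains called higher and in 59.1% of 22 windows of the other chains, against 32.7% of all 32851 windows in the table. CCAAT stood in 33.3%, 36.4% and 33.8% of these sets, and TATAAA in 13.3%, 13.6% and 12.4%. These matches are a description of the letters in the windows.

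The 6 type IV chains, which build the basement membrane network, lie as 3 head-to-head gene pairs. In each pair both chains had the same outcome, and differences between the pairs were not tested. The widespread chains Col4a1 and Col4a2 rose, Col4a3 and Col4a4, best known from kidney and lung, fell slightly, and Col4a5 and Col4a6 on the X chromosome were not called. The deposited table places 293 bases between Col4a1 and Col4a2 on chromosome 8 (11198430 to 11312730 and 11313024 to 11449279), 183 bases between Col4a4 and Col4a3 on chromosome 1, and 1342 bases between Col4a6 and Col4a5. No source used here names the build of these positions.

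Col4a1 read 10.4, 10.6, 11.5 and 10.9 in adenocarcinoma, against 8.8, 8.7, 8.9 and 8.9 in normal mucosa (2.03 ± 0.21; limma adjusted p = 0.00014). Col4a2, its partner in the common type IV helix, read 10.6, 10.7, 11.6 and 11 in adenocarcinoma, against 8.7, 8.3, 8.9 and 8.7 in normal mucosa (2.33 ± 0.22; limma adjusted p = 8.31e-05). The adenocarcinomas kept one order in both chains, replicate 3 highest, then 4, 2 and 1. In RefSeq (GRCm38.p6) the first listed starts of these genes are 21 bases apart and on opposite strands, so their first bases overlap. The 30 bases at chr8:11312801-11312830 (plus strand) hold both starts, and the 22 capitals run from the Col4a2 start to the Col4a1 start.
Col4a1 and Col4a2: cggcAGTGCGCGGGCGGCGTCTCCAAgggg

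Col4a3 read 7.9, 7.8, 7.9 and 8.0 in adenocarcinoma, against 8.4, 8.2, 8.6 and 8.4 in normal mucosa (-0.50 ± 0.102; limma adjusted p = 0.00527). Col4a4, with which it assembles, read 7.6, 7.6, 7.8 and 7.9 in adenocarcinoma, against 8.1, 8.0, 8.2 and 8.2 in normal mucosa (-0.40 ± 0.1; limma adjusted p = 0.0136). The groups did not overlap in either chain, though the gaps were 0.2 and 0.1. With arrays centred on receptor genes Col4a3 kept its call (-0.34), while Col4a4 lost it (-0.24, limma adjusted p = 0.12).

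Col4a5 differed by 0.10 ± 0.126 and Col4a6 by 0.03 ± 0.195, neither called (limma adjusted p = 0.533 and 0.924). Col4a6 read 7.4, 8.3, 7.6 and 7.6 in adenocarcinoma, against 7.8, 7.4, 7.9 and 7.7 in normal mucosa. Only adenocarcinoma replicate 2 exceeded all normal samples in Col4a6, and the same sample was the highest in Col4a5, at 8.4.

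**Figure D3:**
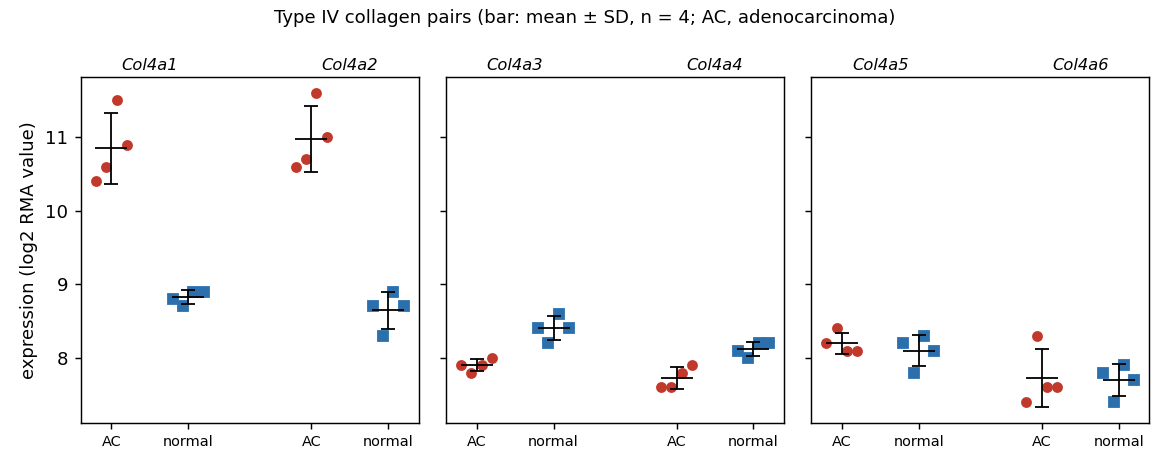
Log2 RMA values of the 6 type IV collagen chains by gene pair, adenocarcinoma (red circles, AC) left of normal mucosa (blue squares), with the mean and SD of 4 samples. Col4a1 and Col4a2 lie at 10.4 or above in adenocarcinoma and at 8.9 or below in normal mucosa, while the other 4 chains stay between 7.4 and 8.6.

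Of the 25 other chains, 9 rose (36.0%), 2 fell (8.0%) and 14 were not called, beside 18.2% and 23.6% of all genes. The FACIT collagens decorate the surface of fibrils. Of their 9 chains, 2 rose (22.2%), a share close to the 18.2% of all genes, though both changes were large. Col12a1, which lies along type I fibres, read 11.9, 11.6, 12.7 and 11.2 in adenocarcinoma, against 7.6, 7.1, 7.1 and 7.1 in normal mucosa (4.63 ± 0.285; limma adjusted p = 6.85e-06). Col14a1, its close relative, read 9.5, 10.7, 11 and 11.1 in adenocarcinoma, against 8.1, 8.1, 8.3 and 8.1 in normal mucosa (2.43 ± 0.309; limma adjusted p = 0.000444). Every adenocarcinoma exceeded every normal sample in both, but the order of the tumours differed: replicate 4 was the lowest for Col12a1 and the highest for Col14a1.

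None of the remaining FACIT chains was called higher. Col9a2, a chain of the cartilage type IX collagen, read 8.7, 8.6, 8.8 and 8.9 in adenocarcinoma, against 9.2, 8.9, 9.4 and 9.2 in normal mucosa (-0.43 ± 0.121; limma adjusted p = 0.0225). Its groups touched at 8.9, and 5 of 18 alternatives lost the call, among them centring on receptor genes (-0.26, limma adjusted p = 0.109). Col9a1 (-0.30) and Col9a3 (-0.18), which complete the type IX helix, were not called. Neither were Col16a1 (0.03), Col19a1 (-0.15), Col20a1 (-0.30) and Col22a1 (-0.25).

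The short-chain collagens form hexagonal lattices, and 2 of their 3 chains rose, where 18.2% of all genes did. Col8a1, found in vessel walls and made by smooth muscle and endothelial cells, read 11.6, 11.7, 11.4 and 10.4 in adenocarcinoma, against 8.2, 8.3, 8.3 and 8.3 in normal mucosa (3.0 ± 0.253; limma adjusted p = 4.1e-05). Its relative Col8a2 read 8.2, 8.0, 8.1 and 8.2 in adenocarcinoma, against 8.4, 8.0, 8.3 and 8.2 in normal mucosa (-0.10 ± 0.106; limma adjusted p = 0.457). The pair thus held a chain with one of the widest gaps between groups and a chain whose groups overlapped.

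Col10a1, the collagen of hypertrophic cartilage, varied more between tumours than any other chain (SD 1.4 in adenocarcinoma, 0.222 in normal mucosa). It read 9.4, 11.4, 9.8 and 8.0 in adenocarcinoma, against 8.0, 7.5, 7.9 and 7.7 in normal mucosa (1.88 ± 0.579; limma adjusted p = 0.0303). Replicate 4 equalled normal replicate 1, so the rise rests on the other 3 adenocarcinomas. The call was lost without any one of the 4 normal samples (0.0591 to 0.07) or without adenocarcinoma replicate 3 (0.0544), and with a replicate block (0.0552). Leaving out adenocarcinoma replicate 4 raised the difference to 2.43, and leaving out replicate 2 lowered it to 1.29. Of 5 cartilage markers (Acan, Matn1, Matn3, Sox9 and Comp) none rose and Matn1 fell, where 18.2% of all genes rose and 23.6% fell. Their summed level was 11.2 to 12.6 in adenocarcinoma, against 11.1 to 11.6 in normal mucosa. Most of this sum came from Sox9, with 10.8, 11.4, 11.5 and 12.4 in adenocarcinoma, against 11.2, 11.1, 10.7 and 10.6 in normal mucosa. Acan, Matn1, Matn3 and Comp read 8.1 or less in every array. The sum is thus no measure of cartilage, and the source of Col10a1 was not tested.

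The multiplexins Col15a1 and Col18a1, which sit at basement membranes and release anti-angiogenic fragments such as endostatin, changed by the same mean amount. Col15a1 read 9.7, 10.2, 10.5 and 10.6 in adenocarcinoma, against 8.7, 8.4, 8.5 and 8.7 in normal mucosa (1.68 ± 0.188; limma adjusted p = 0.000218). Col18a1 read 9.6, 9.6, 10.5 and 10.9 in adenocarcinoma, against 8.4, 8.2, 8.6 and 8.7 in normal mucosa (1.68 ± 0.289; limma adjusted p = 0.00228). In both chains the groups were apart and adenocarcinoma replicate 4 was the highest.

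Type VI collagen makes beaded microfilaments between basement membranes and fibres, and the chains of its classical helix all rose. Col6a1 read 9.5, 10.5, 11.1 and 10.4 in adenocarcinoma, against 9.0, 8.6, 9.1 and 8.7 in normal mucosa (1.53 ± 0.293; limma adjusted p = 0.004). Col6a3 read 8.9, 9.7, 10.5 and 9.6 in adenocarcinoma, against 8.4, 8.0, 8.5 and 8.4 in normal mucosa (1.35 ± 0.289; limma adjusted p = 0.00669). Col6a2 read 9.2, 10.1, 10.4 and 10.2 in adenocarcinoma, against 9.1, 8.7, 8.9 and 9.0 in normal mucosa (1.05 ± 0.237; limma adjusted p = 0.00853). In each, adenocarcinoma replicate 1 was the lowest tumour and still above every normal sample, and replicate 3 was the highest.

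The later-described type VI chains, encoded together on chromosome 9, did not follow. Col6a4 read 7.6, 7.8, 8.0 and 8.0 in adenocarcinoma, against 8.4, 8.1, 8.4 and 8.3 in normal mucosa (-0.45 ± 0.119; limma adjusted p = 0.017). Col6a6 differed by -0.28 ± 0.111 and was not called (limma adjusted p = 0.0734). Its second probe set read 6.9 to 7.2 in adenocarcinoma, against 7.5 to 7.6 in normal mucosa, and with the mean of both probe sets Col6a6 was called lower (-0.38, limma adjusted p = 0.00844). The groups of Col6a4 were 0.1 apart, and 3 of 18 alternatives lost its call, among them centring on receptor genes (-0.29, limma adjusted p = 0.12).

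Collagens of epithelial anchorage and of the cell membrane showed no call. Col7a1, the anchoring fibril under stratified epithelium, differed by -0.13 (limma adjusted p = 0.424). Col17a1, the hemidesmosomal collagen, differed by -0.20 (0.136), and the other membrane-spanning chains Col13a1, Col23a1 and Col25a1 by -0.18, -0.25 and -0.18. Col28a1 differed by -0.08. Over all 20 chains not called, differences ran from -0.33 to 0.10 with SEs of 0.102 to 0.195, and 17 were below 0. The median change over all genes was itself -0.10, and these 20 are what is left once called chains are set aside. The count below 0 is thus no test of a fall. The gene listed as Emid2, which RefSeq now names Col26a1 and which the symbol rule does not take, averaged 8.7 in adenocarcinoma and 9.03 in normal mucosa (-0.33 ± 0.0926; limma adjusted p = 0.0225).

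The count of falls moved with the scaling of the arrays more than the count of rises. With each array centred on its median, the all-gene median change was -0.24 instead of -0.10, and the counts were 15 chains higher and 16 lower. It was -0.01 with cyclic loess, with counts of 16 and 5, and 0.06 with arrays centred on 1330 olfactory and vomeronasal receptor genes, with counts of 17 and 1. Of all genes, 14.1% were higher and 42.9% lower with median centring, 18.1% and 15% with cyclic loess, and 23% and 7.61% with receptor centring. The share of calls that were rises, over all genes, was 43.6% as reported and 24.8%, 54.8% and 75.1% under these settings. In all 25 chains not called higher, normal replicate 2 was the lowest normal sample or tied for it, and without it 13 chains were called lower in place of 5 (25.2% of all genes in that fit). The 14 chains whose groups were apart kept their rise in all 18 alternatives, and Col4a3 was the one chain that kept a fall in all 18.

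**Figure D4:**
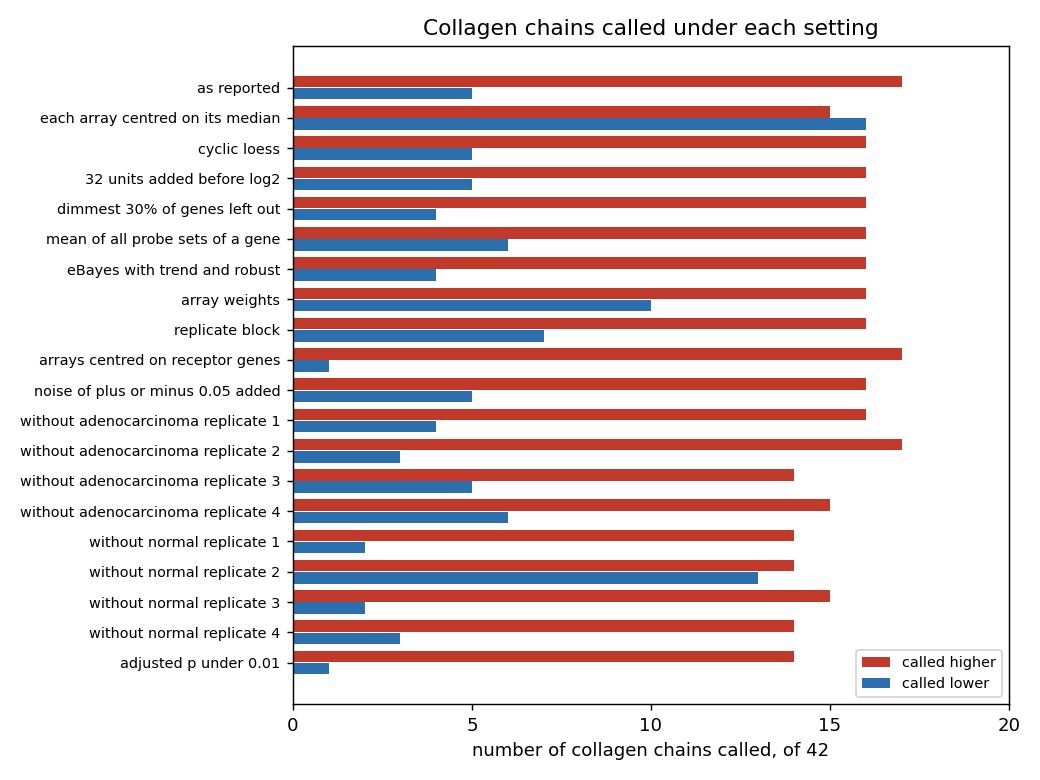
Number of the 42 collagen chains called higher (red) and lower (blue) in adenocarcinoma under the setting reported and each alternative. The red bars stay between 14 and 17, and the blue bars run from 1 to 16.

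Whether chains that work together changed by unequal amounts was asked in 12 pairs chosen by helix, gene neighbourhood or type. Per array, the value of one chain was subtracted from that of the other, and both groups were compared by a two-sided exact permutation test (70 assignments, smallest p 0.0286), adjusted over the 12 pairs. No pair passed (smallest adjusted p = 0.0858), while 4 reached the smallest p the design allows. Under this adjustment a pair at that p passes only if enough other pairs reach it too. The outcome of a pair was thus not decided by the size of its own gap alone. With 32 units added before log2, 7 pairs had an adjusted p of 0.049, so the outcome depends on this setting.

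The widest gap was between Col8a1 and Col8a2, whose difference was 3.15 ± 0.656 in adenocarcinoma and 0.05 ± 0.208 in normal mucosa (± SD over 4 samples a group; exact permutation p = 0.0286). For Col5a1 minus Col5a2 it was -0.25 ± 0.1 in adenocarcinoma and 0.9 ± 0.141 in normal mucosa (exact permutation p = 0.0286), so Col5a2 changed more by 1.15 on the log2 scale. Col11a1 minus Col11a2 gave -0.08 ± 0.126 in adenocarcinoma and -0.73 ± 0.05 in normal mucosa (exact permutation p = 0.0286). In these 3 pairs and in Col4a1 minus Col4a2 (-0.13 ± 0.05 in adenocarcinoma, 0.18 ± 0.171 in normal mucosa) the groups did not overlap. Groups also did not overlap in 34.3% of all single genes, and the share among other gene pairs was not computed.

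Other partners differed less. Col1a1 minus Col1a2 averaged 0.48 ± 0.126 in adenocarcinoma and 0.60 ± 0.141 in normal mucosa (exact permutation p = 0.343). Col3a1 minus Col5a2 averaged 1.15 ± 0.238 in adenocarcinoma and 1.1 ± 0.0816 in normal mucosa (exact permutation p = 0.857). Col15a1 minus Col18a1 averaged 0.1 ± 0.374 in adenocarcinoma and 0.1 ± 0.183 in normal mucosa. In these 3 pairs the groups overlapped, though a p above the threshold does not show equal changes.

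**Figure D5:**
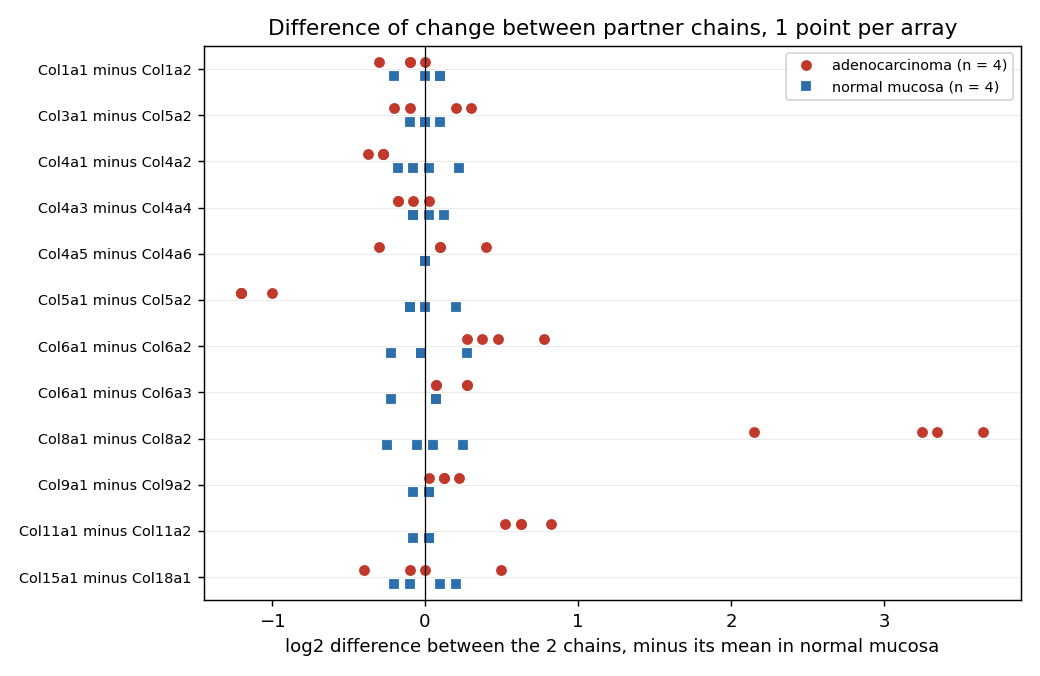
Difference in log2 value between 2 partner chains in each array, minus its mean in normal mucosa, for 12 pairs (red circles, adenocarcinoma; blue squares, normal mucosa; equal values overlap). Col8a1 minus Col8a2, Col5a1 minus Col5a2, Col11a1 minus Col11a2 and Col4a1 minus Col4a2 part the groups, and none passed after adjustment (0.0858). With 12 pairs, none could pass by its own gap alone.

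Among the 17 chains called higher, the tumours differed in level. Adenocarcinoma replicate 3 was the highest in 11 of the 17 chains, and replicate 1 was the lowest, or tied for it, in 13. Averaged over the 17 chains, replicates 1 to 4 stood 1.56, 2.02, 2.49 and 1.96 above the normal mean. The SD between adenocarcinomas exceeded that between normal samples in all 17 chains, with a median of 0.532 in adenocarcinoma and 0.173 in normal mucosa. In the 25 chains not called higher it did so in 8, with medians of 0.15 and 0.173. The 17 were picked by their higher values in adenocarcinoma, so these counts are no test of spread.

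Markers of stromal cells were higher in the same samples, where 18.2% of all genes were called higher. Of 7 fibroblast markers, 6 rose, among them Dcn (4.48) and Pdgfrb (2.93), with summed levels of 13.1, 13.6, 14.3 and 13.8 in adenocarcinoma replicates 1 to 4 and of 10.3 to 10.6 in normal mucosa. All 6 smooth muscle markers rose (summed level 12.5 to 14.9 in adenocarcinoma, against 10.5 to 10.6 in normal mucosa), as did all 5 of endothelium (12.1 to 13.3 and 9.71 to 9.74) and all 5 of pericytes (11.8 to 13.3 and 9.99 to 10.3). Fibroblast, smooth muscle, endothelial and pericyte sums were each highest in adenocarcinoma replicate 3 and lowest in replicate 1. Lum, also called higher, read 10.1 to 11.4 in adenocarcinoma, while in all 4 normal samples it and Fap did not exceed the median background probe, so that the sizes of their changes are not given. The part of these cells in the collagen changes was not tested.

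Markers of cells that could bring other collagens were counted beside all genes, of which 18.2% rose and 23.6% fell. Of 4 Schwann cell and glial markers, Sox10 fell and none rose, and of 5 squamous basal markers, which would mark forestomach, Trp63 fell and none rose. Of 4 mesothelial markers, Msln rose (4.38), a gene that carcinomas also express, and the other 3 were not called. None of 4 adipocyte markers was called.

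The genes that make, process, bind and degrade collagen were counted by lists written from their known roles. Of 19 measured genes for hydroxylation, folding and export of procollagen, 11 rose and 4 fell, with a median change of 0.80; of all genes 18.2% rose and 23.6% fell. The lysyl hydroxylase Plod2, whose product shapes stable crosslinks, read 9.6, 9.7, 11 and 10.8 in adenocarcinoma, against 7.4, 7.6, 7.3 and 6.8 in normal mucosa (3.0 ± 0.333; limma adjusted p = 0.000206). The collagen chaperone Fkbp10 changed by 2.63 and the galactosyltransferase Glt25d1 by 1.63, or by 0.71 with the mean of its probe sets. The falls were small apart from Mia3 (-1.0 ± 0.149; limma adjusted p = 0.00103), which loads bulky procollagen for export from the endoplasmic reticulum, and Serpinh1, the collagen chaperone Hsp47, was not called (0.48, limma adjusted p = 0.185).

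Of 15 genes for cleavage of procollagen ends and crosslinking, 9 rose and none fell (median 0.98), beside 18.2% and 23.6% of all genes. The lysyl oxidase Lox, which starts crosslinks between fibrillar chains, read 12, 11.9, 12.8 and 11.7 in adenocarcinoma, against 7.9, 8.2, 7.6 and 7.9 in normal mucosa (4.20 ± 0.23; limma adjusted p = 3.49e-06). The groups stood more than 3 log2 units apart, and replicate 3 was again the highest. Its relative Loxl2 changed by 2.95, or by 1.40 with the mean of its probe sets, and Pcolce, which enhances C-propeptide removal, by 2.48.

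Of 9 collagen receptors, 6 rose and none fell (median 0.88), against 18.2% and 23.6% of all genes. The integrin chain Itga2, a chain of a collagen-binding integrin, read 12.4, 12.2, 11.9 and 12.5 in adenocarcinoma, against 8.0, 8.0, 8.1 and 7.8 in normal mucosa (4.28 ± 0.138; limma adjusted p = 2.17e-07). Itga1 changed by 2.85 and the discoidin-domain receptor kinase Ddr2 by 1.95, while its relative Ddr1 was not called (-0.20, limma adjusted p = 0.293). Adenocarcinoma replicate 3 was the lowest tumour for Itga2 and the highest for Itga1 (10.9) and Ddr2 (10.7).

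Of 13 genes of collagen breakdown, 9 rose and none fell, against 18.2% and 23.6% of all genes. In normal mucosa 3 of the 13 (Mmp1a, Mmp8 and Fap) did not exceed the median background probe in any of the 4 samples, and Mmp1a exceeded it in none of the 8, so no median is given. The gelatinase Mmp2 read 11.8, 12.1, 12.8 and 12.7 in adenocarcinoma, against 8.4, 8.4, 8.2 and 8.3 in normal mucosa (4.03 ± 0.21; limma adjusted p = 2.76e-06). The membrane-bound collagenase Mmp14 changed by 3.38 and the lysosomal collagenase Ctsk by 2.65.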

How the data were processed

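Affymetrix arrays measured 4 adenocarcinomas and 4 samples of stomach mucosa. Per the labels' protocols, RNA came from a Qiagen extraction kit and carried a biotin label. The deposited values are log2 values that the authors made with RMA, per the submitters' processing notes; no source used here gives its version. All 284448 values had at most 1 decimal (tolerance 1e-06), and both deposited tables held the same values. Gene probe sets with 1 symbol (24975 of 28350) were reduced to the probe set with the highest mean of the 8 arrays, giving 21626 genes with no filter on low values; 3 chains had 2 probe sets. Groups were compared with limma 3.58.1 in R 4.3.3 (lmFit, eBayes, Benjamini-Hochberg over all genes). The number of arrays limits the precision. Named are the chains called with a change of at least 1 on the log2 scale, the largest rise and fall of each class, the 3 chains nearest the threshold on each side and, per further list, the 3 called genes of largest change. Remaining chains are given by value to account for all 42, and Mia3, Serpinh1, Ddr1, Mmp1a, Mmp8 and called marker genes of other cells were named with their values in view.

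Members and lists were chosen with earlier results of these data known. Simulated data on 21626 genes, 200 of them changed, were used to test the fit. Alternatives were median centring, cyclic loess, 32 units added before log2, the dimmest 30% of genes left out (40 of 42 chains stayed), the mean of probe sets, trend and robust, array weights, a replicate block, an adjusted p under 0.01 and each array left out. Receptor-gene centring and noise of plus or minus 0.05 were chosen after seeing the data. Scan batches were not analysed here. Figures were drawn with Python 3.11.15 and matplotlib 3.10.9.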

Additional observations from a re-analysis of the deposited data

Results flagged for a closer look

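In 92 groups of 4 values, 7 held a sample that stood far from the other 3 (Dixon's ratio at the usual level), where chance flags about 1 in 20. All 7 were normal samples. Normal replicate 1 read 8.9 for Col1a2 (the other 3 at 8.5), 7.6 for Col12a1 (the others at 7.1) and 8.2 for Col8a1 (the others at 8.3). Normal replicate 3 read 8.3 for Col14a1, with the others at 8.1. Normal replicate 2 read 7.9 for Fkbp10, 9.0 for Acta2 and 8.0 for Kcnj8. Values are rounded to 1 decimal, so a step of 0.1 or 0.2 can be flagged in a tight group. Each gene's adenocarcinomas lay above all its normal samples.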

How the results depend on the processing

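The 14 chains that rose with groups apart, and Col4a3 among those that fell, kept their call in the 18 alternatives. The count of chains called higher ran from 14 to 17 over all settings. The count called lower, 5 as reported, was 16 after median centring, 10 with array weights, 1 with receptor centring, 1 at an adjusted p under 0.01 and 2 to 13 with an array left out. Fibrillar chains called lower (1 as reported) numbered 3 after median centring, 0 without the dimmest 30% of genes, 0 with trend and robust, 3 with array weights, 2 with a replicate block, 0 with receptor centring, 0 at 0.01 and 0 to 3 with an array left out. Basement membrane chains called lower (2) numbered 1 with receptor centring and 1 at 0.01. Other chains called lower (2) numbered 11 after median centring, 5 with array weights, 0 with receptor centring, 0 at 0.01 and 0 to 8 with an array left out. The hydroxylation and folding list (4 lower) gave 1 with receptor centring, 1 at 0.01 and 1 to 3 with an array left out, and the crosslinking and receptor lists gave 1 lower each after median centring. Over all genes, 2376 rose at 0.01. The 5099 falls became 9272 after median centring, 3239 after cyclic loess, 3180 without the dimmest 30%, 1645 with receptor centring, 1912 at 0.01 and 2975 to 5456 with an array left out. Partner pairs called numbered 0 as reported and 7 with 32 units added. The causes were not tested. The labels do not say that replicate numbers pair the samples. Over genes, same-numbered arrays deviated together with r of -0.175, 0.0948, 0.158 and 0.0376 for replicates 1 to 4. The best other-numbered normal array gave 0.113, 0.0885, 0.04 and 0.0685. These correlations cannot decide whether the samples are paired, and the replicate block gave 16 chains higher and 7 lower. Of the genes named, Lum, Fap, Mmp1a and Mmp8 were at or below background in every normal sample.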
